A study of Mus musculus with 6 samples.

Results

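Genes for the structural glycoproteins, proteoglycans and laminins of the extracellular matrix were followed in cultured mouse fibroblast-like synoviocytes, which line the joint, after delivery of Epas1. The genes were chosen with earlier results of these data known. They were a fixed list of 52 symbols in 5 classes, by the kind of protein they encode. A gene was represented by a probe set with that single symbol in the platform annotation and, where there were several, by the one with the highest mean over the 6 arrays. This gave 51 of the 22180 genes tested: 10 of elastic fibres and microfibrils, 15 of fibronectin and the matricellular proteins, 10 of aggrecan and the small leucine-rich proteoglycans, 9 of laminins and basement membranes, and 7 syndecans and glypicans. Efemp2 was not analysed here. The cells came from knee synovium of C57BL6 mice and were used at passages 4 to 8. Cells of both groups were exposed for 2 h to adenovirus (multiplicity of infection 800) and then cultured for 24 h, with an empty virus in the Mock group (3 arrays) and a virus carrying Epas1 in the Ad-Epas1 group (3 arrays). Epas1 codes for HIF-2alpha, which activates genes when oxygen is low, and what promoter drives it in the virus is not stated in the labels. The labels call the replicates biological without naming separate animals or cultures, so a p-value here covers only how these samples differ, which may be technical.

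The extracellular matrix is the meshwork of proteins and sugars that cells lay down around themselves. Elastin is deposited on fibrillin microfibrils to make elastic fibres, fibronectin and collagens form the fibrillar scaffold, and laminins assemble as trimers of an alpha, a beta and a gamma chain into basement membranes, where nidogens and perlecan link them to other networks. Small leucine-rich proteoglycans bind collagen fibrils and govern their thickness, matricellular proteins such as thrombospondins and tenascins adjust how cells grip the matrix, and syndecans and glypicans carry heparan sulfate chains on the cell surface. In the joint, synovial fibroblasts make much of the matrix of the lining, and components such as cartilage oligomeric matrix protein are known from cartilage and tendon as well.

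All levels are log2 expression values from probe summaries after RMA, a normalization that evens out the distributions of the arrays and thereby hides any shift common to most genes. The array medians lay between 6.77 and 6.84 over all probe sets. Epas1 stood at 8.67, 8.71 and 8.51 on Mock replicates 1, 2 and 3 and at 13.14, 13.15 and 13.11 on the Ad-Epas1 arrays, as labelled. All 12 fibroblast markers stood above the reference for unexpressed genes in at least 1 group, that reference being the level below which 95% of 1394 olfactory and vomeronasal receptor genes lay (6.62). Thy1, which encodes the fibroblast surface protein CD90, stood at 11.17, 11.06 and 11.06 in Mock and at 10.40, 10.60 and 10.98 in Ad-Epas1. The labels give the cells as over 90% CD90+ and under 1% CD14+ by flow cytometry, but 13 of 14 macrophage markers also stood above the reference in at least 1 group, among them Cd14 at 10.42, 9.99 and 10.14 in Mock and at 11.92, 11.40 and 8.62 in Ad-Epas1. Summed over the list, macrophage markers lay between 14.74 and 15.07 in Mock and between 11.69 and 15.11 in Ad-Epas1 (log2 of the sum), the lowest being Ad-Epas1 replicate 3, where their median was -3.36 from the Mock mean against 0.01 and -0.08 on the other two Ad-Epas1 arrays. Of the endothelial markers 5 of 8 stood below the reference in both groups, of the lymphocyte markers 4 of 5, of the adipocyte markers 3 of 5, of the chondrocyte markers 3 of 8 and of the smooth muscle and pericyte markers 1 of 8. In RNA from whole cultures, fewer cells of a type and less RNA per cell cannot be told apart.

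Matrix genes moved in both directions when Epas1 was delivered. Of the 51, 7 rose and 8 fell, while 36 missed the threshold (limma over all genes, Benjamini-Hochberg adjusted p under 0.05). Emilin1, which encodes a glycoprotein at the interface of elastin and microfibrils, rose the most among them, 2.69-fold, and Lama2, the laminin alpha-2 chain, fell the most, to a level 2.76-fold lower. The members called made up 29.4%, against 16.3% of all 22180 genes and 26.2% of the 11090 genes above the median level, where 43 of the 51 lay. By direction, 6.57% of all genes rose and 9.75% fell. With each array centred on its median, 8 members rose and 6 fell, and with a further quantile step between arrays 7 rose and 6 fell, while over all genes that step gave 1913 rises and 1731 falls in place of 1458 and 2162. Of the members that passed, 12 changed by at least 1.5-fold, 6 in each direction. Of all genes 7.75% both passed and changed that much, and of the 11090 above the median level 1414 did. Efemp1, Thbs2 and Ogn differed by more than 1.5-fold, all lower in Ad-Epas1, without passing. The 3 Ad-Epas1 arrays all lay above or all below the 3 Mock arrays for 28 of the 51 members, against 39.7% of all genes. These were 12 members above and 16 below, against 21.3% and 18.4% of all genes. Of the 11090 genes above the median level, 5856 did not overlap, 2496 of them above and 3360 below. The median log2 fold change was -0.11 over the members and 0.05 over all genes.

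**Figure D1:**
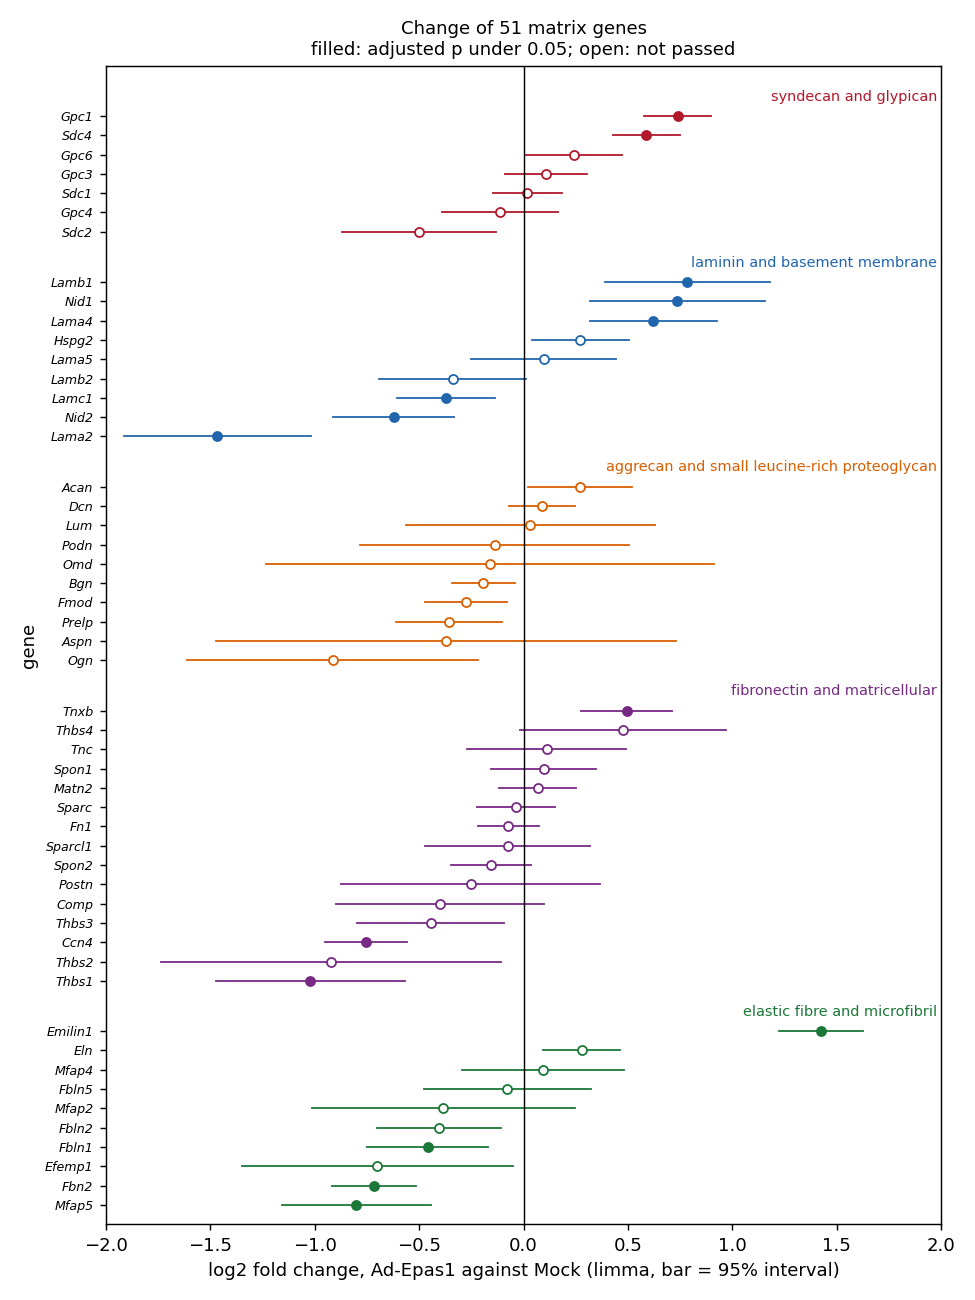
Log2 fold change of each of the 51 genes, Ad-Epas1 against Mock, on the horizontal axis, with the 95% interval from limma, grouped and coloured by class. The 15 filled points passed the test; Emilin1 (1.43) stands at the right and Lama2 (-1.47) at the left, and the aggrecan and small leucine-rich proteoglycan class has no filled point.

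How firmly these calls stood differed between genes. Emilin1, Gpc1 and Sdc4 among the risen and Lama2, Ccn4 and Fbn2 among the fallen, 6 of the 15, passed whichever single array was left out. For the other 9 the call ended in 3 of these fits, those without replicate 2 or 3 of Mock or without replicate 2 of Ad-Epas1, each of which left the same 6. Calls over all genes also fell in these 3 fits, from 16.3% on all arrays to 5.35%, 5.32% and 6.82%. The 6 members left were 11.8% of the 51. Mock replicates 2 and 3 were alike. Over the members the SD of their difference was 0.08, against 0.37 and 0.40 between either and Mock replicate 1. Over all genes the SD was 0.14, against 0.23 and 0.24. Averaged and counted as 1 sample, an alternative added after the data were seen, Mock replicates 2 and 3 also left these 6. That fit called 5.49% of all genes. When Ad-Epas1 replicate 3, where macrophage markers were low, was left out, all 15 passed together with 8 more, so that 8 rose and 15 fell, which is 45.1% of the members against 24.3% of all genes in that fit.

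**Figure D2:**
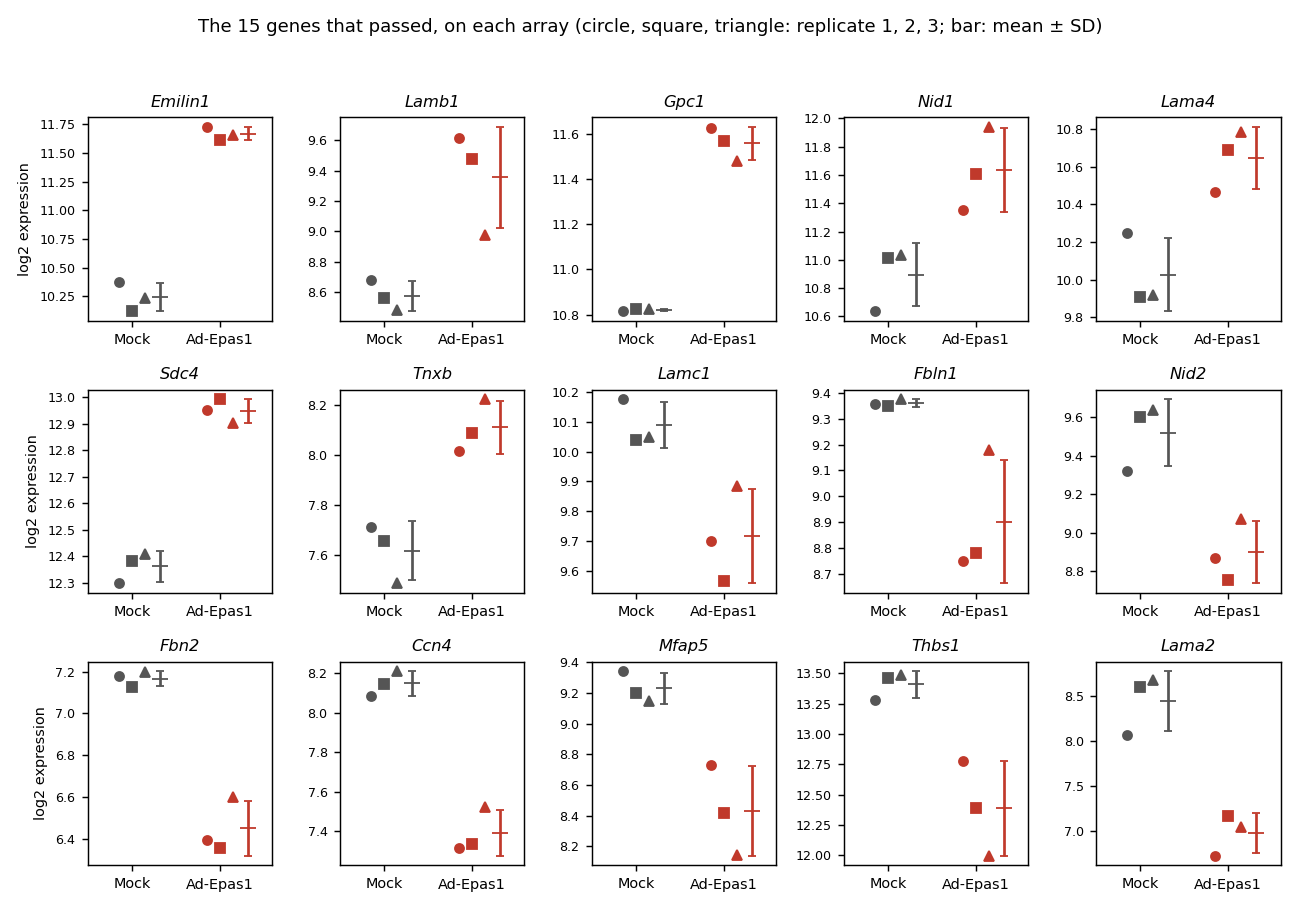
Log2 expression (vertical axes, a separate scale for each gene) of the 15 genes that passed, on 3 Mock (grey) and 3 Ad-Epas1 (red) arrays; symbols mark the replicate number and bars the mean ± SD. The groups do not overlap in any of the 15 panels, and Thbs1 and Lamb1 have the widest spread of the 15 within Ad-Epas1, with SDs of 0.39 and 0.33.

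Promoter sequence was at hand for some of these genes, and 3 windows are shown because they belong to members that passed and lie wholly outside the gene's RefSeq span. They are the 250 bases before the RefSeq start of Sdc4 (chr2:164443189-164443438, minus strand), Nid1 (chr13:13437352-13437601, plus strand) and Fbln1 (chr15:85205699-85205948, plus strand), all of build GRCm38.p6 and written 5′ to 3′. Sdc4 and Nid1 rose and Fbln1 fell. Capitals mark the letters ACGTG or GCGTG on either strand, the core of the element that HIF proteins are known to bind. The 2 words can overlap on opposite strands, as in the run of 6 capitals in Fbln1, which counts as 2 matches.
Sdc4: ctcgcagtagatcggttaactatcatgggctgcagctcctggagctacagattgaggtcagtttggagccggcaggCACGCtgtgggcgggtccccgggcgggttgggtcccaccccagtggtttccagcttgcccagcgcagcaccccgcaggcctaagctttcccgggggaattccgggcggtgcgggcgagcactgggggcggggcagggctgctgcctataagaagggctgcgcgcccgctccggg
Nid1: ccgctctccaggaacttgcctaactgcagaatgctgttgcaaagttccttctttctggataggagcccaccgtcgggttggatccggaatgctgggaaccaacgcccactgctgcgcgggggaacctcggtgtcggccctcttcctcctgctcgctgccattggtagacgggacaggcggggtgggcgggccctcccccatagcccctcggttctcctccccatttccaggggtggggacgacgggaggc
Fbln1: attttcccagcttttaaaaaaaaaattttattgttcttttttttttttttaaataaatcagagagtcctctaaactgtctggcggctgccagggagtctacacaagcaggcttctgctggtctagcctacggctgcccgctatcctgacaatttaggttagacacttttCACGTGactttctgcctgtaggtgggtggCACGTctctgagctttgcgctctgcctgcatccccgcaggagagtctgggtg
The Sdc4 window held 1 match, 174 bases before the start, and the Fbln1 window 3, at 81, 80 and 52 bases before it. The Nid1 window held none of these letters. A promoter was matched by symbol for 31 of the 51 members, and 15 of the 31 had a match in at least 1 window (48.4%), against 47.8% of 16990 tested genes with a window and 38.6% of all 32851 windows. By call, 3 of 5 risen members with a window had a match, 1 of 2 fallen and 11 of 24 that did not pass. A match is a description of the letters and not of binding.

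Among the genes of elastic fibres and microfibrils, 1 of 10 rose, 3 fell and 6 did not pass (40.0% called, against 16.3% of all genes). Emilin1 stood at 10.37, 10.12 and 10.24 on Mock replicates 1, 2 and 3 and at 11.73, 11.62 and 11.66 on Ad-Epas1 replicates 1, 2 and 3. Every Ad-Epas1 array was above every Mock array by more than the spread within either group (10.24 ± 0.12 against 11.67 ± 0.06, mean ± SD, n = 3 each), a log2 fold change of 1.43 (SE 0.08, limma, adjusted p = 5.5e-04). Fbn2 encodes fibrillin-2, a microfibril protein most abundant in developing tissue, and stood at 7.18, 7.13 and 7.20 in Mock and at 6.40, 6.36 and 6.60 in Ad-Epas1. Its fall by 0.72 (SE 0.08, limma, adjusted p = 0.0039) ended below the reference for unexpressed genes, so its size is not exact. Mfap5, a microfibril-associated glycoprotein, was at 9.34, 9.20 and 9.15 in Mock and at 8.73, 8.42 and 8.14 in Ad-Epas1, 1.74-fold lower (SE 0.15 on the log2 scale, limma, adjusted p = 0.016). Fbln1, a fibulin that binds fibronectin and elastin, was at 9.36, 9.35 and 9.38 in Mock and at 8.75, 8.78 and 9.18 in Ad-Epas1, with Ad-Epas1 replicate 3 close to Mock, and fell by 0.46 (SE 0.12, limma, adjusted p = 0.047). The call of Fbln1 held on all arrays and without Ad-Epas1 replicate 3, and ended in the other 5 fits that left out an array (adjusted p up to 0.15) and also with each array centred on its median or with a further quantile step. That of Mfap5 ended in the 3 fits named above (up to 0.066).

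Elastin itself differed little. Eln stood at 6.54, 6.70 and 6.55 in Mock and at 6.94, 6.89 and 6.80 in Ad-Epas1, near the reference for unexpressed genes, and its difference of 0.28 missed the threshold (limma, adjusted p = 0.054, and 0.035 without Ad-Epas1 replicate 3). The fibulin genes Fbln2 and Fbln5, whose products bind elastin and other fibre components, differed by -0.40 (adjusted p = 0.073) and -0.08 (95% interval -0.48 to 0.32). Efemp1, a fibulin-family gene, stood at 12.00, 12.64 and 12.65 in Mock and at 11.20, 11.96 and 12.04 in Ad-Epas1. Replicate 1 was the lowest in each group, the groups overlapped, and the difference of -0.70 did not pass (adjusted p = 0.13), though Efemp1 was called when both arrays numbered 1 were left out. Mfap2, a microfibril-associated glycoprotein, was at 9.24, 9.56 and 9.44 in Mock and at 8.57, 8.89 and 9.65 in Ad-Epas1. Its Ad-Epas1 replicate 3 lay above all Mock arrays, and it missed the threshold on all arrays (-0.38, adjusted p = 0.36) but passed when that array was left out (-0.69, adjusted p = 0.011). Mfap4 stood below the reference in both groups.

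In the class of fibronectin and matricellular proteins, 1 of 15 rose, 2 fell and 12 did not pass (20.0% called, against 16.3% of all genes). Thbs1 encodes thrombospondin-1, which restrains vessel growth and activates latent TGF-beta. It stood at 13.28, 13.46 and 13.49 in Mock and at 12.78, 12.39 and 12.00 in Ad-Epas1, 2.03-fold lower (log2 fold change -1.02, SE 0.19, limma, adjusted p = 0.016). Ccn4, also called Wisp1, encodes a secreted protein known as a target of Wnt signalling, and was at 8.09, 8.15 and 8.21 in Mock and at 7.32, 7.34 and 7.53 in Ad-Epas1. No array of one group reached the other, and the fall was by 0.76 (SE 0.08, limma, adjusted p = 0.0031). Tnxb, tenascin-X, which supports collagen deposition, was at 7.71, 7.66 and 7.49 in Mock and at 8.02, 8.09 and 8.23 in Ad-Epas1, a rise of 0.49 (SE 0.09, limma, adjusted p = 0.016). The calls of Thbs1 and Tnxb ended in the fits without replicate 2 or 3 of Mock or replicate 2 of Ad-Epas1, with adjusted p reaching 0.071 and 0.064.

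Fibronectin stood at nearly one level on all arrays. Fn1 lay between 13.42 and 13.48 in Mock and between 13.35 and 13.40 in Ad-Epas1, near the highest value on any array (13.77), and the difference was -0.07 with a 95% interval from -0.22 to 0.07, although the groups did not overlap. Sparc, a collagen-binding matricellular protein, differed by -0.04 (-0.22 to 0.15), and Tnc, tenascin-C, by 0.11 (-0.27 to 0.49). Postn, periostin, stood at 12.00, 12.73 and 12.81 in Mock and at 11.87, 12.55 and 12.37 in Ad-Epas1, so that the first array of each group was lower than the rest of it and the groups overlapped (-0.25, adjusted p = 0.54). Comp, cartilage oligomeric matrix protein, had the same order of arrays in part, at 11.44, 12.09 and 12.05 in Mock and at 11.19, 11.46 and 11.73 in Ad-Epas1 (-0.40, adjusted p = 0.24). The members Sparcl1, Matn2, Spon1 and Spon2 differed by -0.15 to 0.10, and Spon1 stood below the reference in both groups.

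For the other thrombospondin genes, Ad-Epas1 replicate 3 stood apart from replicates 1 and 2. Thbs2, whose product also restrains vessel growth, stood at 10.95, 11.08 and 11.04 in Mock and at 9.68, 9.66 and 10.97 in Ad-Epas1: replicates 1 and 2 lay below all Mock arrays and replicate 3 among them. Over all arrays its difference was -0.92 (SE 0.34, limma, adjusted p = 0.12), and without Ad-Epas1 replicate 3 it was -1.36 (adjusted p = 2.3e-04). Thbs3 differed by -0.44 (adjusted p = 0.089) and, without that array, by -0.58 (adjusted p = 0.016). Thbs4, a thrombospondin of tendon and muscle, was at 11.87, 12.09 and 12.09 in Mock and at 12.21, 12.28 and 12.98 in Ad-Epas1, highest on replicate 3, and the difference of 0.48 did not pass (adjusted p = 0.16). Thbs1 ran the other way, with its lowest value on Ad-Epas1 replicate 3. Macrophage markers were low on that array, as given above, and their part in these values was not tested.

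None of the 10 genes of aggrecan and the small leucine-rich proteoglycans passed the limma test, while 5 had an unadjusted p under 0.05. Of all 22180 genes, 16.3% passed and 7214 had an unadjusted p under 0.05. The other fits of limma called between 0 and 5 of the 10, with 5 called under array weights, which called 35.1% of all genes. The linear model without shared variance called 1 of the 10 and 6.53% of all genes. The median log2 fold change was -0.18, and the extremes were Ogn (-0.91) and Acan (0.27). Dcn, decorin, which limits the thickness of collagen fibrils, lay between 12.78 and 12.89 in Mock and between 12.87 and 12.95 in Ad-Epas1, and its difference was 0.09 with a 95% interval from -0.07 to 0.25. Bgn, biglycan, its near relative, lay between 13.20 and 13.28 in Mock and between 13.03 and 13.08 in Ad-Epas1, which did not overlap (-0.19, SE 0.06, limma, adjusted p = 0.084). Fmod and Prelp, which bind collagen and are next to each other in the genome, were also lower on every Ad-Epas1 array, at -0.28 (adjusted p = 0.066) and -0.36 (adjusted p = 0.067). Both passed without Ad-Epas1 replicate 3 (-0.34 and -0.46, adjusted p = 0.017 and 0.0073), and Bgn, Fmod and Prelp passed with a variance prior that was both trended and robust. The dimmer second probe sets of Bgn, Fmod and Prelp gave -0.23, -0.15 and -0.15 (limma, adjusted p = 0.18, 0.45 and 0.39 over all probe sets). On each of these second probe sets the groups overlapped.

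The neighbouring genes Aspn, Omd and Ogn, which lie side by side with no other protein-coding gene between them in RefSeq, shared a pattern across arrays. Ogn, osteoglycin, stood at 11.84, 12.58 and 12.60 in Mock and at 10.87, 11.69 and 11.71 in Ad-Epas1. Aspn, asporin, stood at 7.77, 9.17 and 9.17 and at 7.59, 8.78 and 8.61, and Omd, osteomodulin, at 8.17, 9.49 and 9.63 and at 8.26, 9.15 and 9.40 on the same arrays. For each of them replicate 1 was the lowest of its group in both groups. Ogn was lower on every Ad-Epas1 array than on any Mock array (-0.91, SE 0.29, limma, adjusted p = 0.080, and 0.048 without Mock replicate 1), whereas the groups overlapped for Aspn (-0.37, adjusted p = 0.61) and Omd (-0.16, adjusted p = 0.83). Lum, lumican, and Podn, podocan, were high on Ad-Epas1 replicate 3, at 11.75 and 10.12 against 10.72 and 10.92, and 9.18 and 9.22, on replicates 1 and 2. Lum stood between 11.09 and 11.11 on the Mock arrays, so its Ad-Epas1 arrays lay on both sides of Mock (0.03, 95% interval -0.56 to 0.63, and -0.28 without Ad-Epas1 replicate 3, where its direction turned). Lum lies next to Dcn, whose 3 Ad-Epas1 values had an SD of 0.04. Acan, aggrecan, the large proteoglycan of cartilage, stood at 6.52, 6.76 and 6.51 in Mock, about the reference for unexpressed genes, and at 6.80, 7.03 and 6.78 in Ad-Epas1 (adjusted p = 0.13).

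Of the 9 laminin and basement membrane genes, 3 rose, 3 fell and 3 did not pass (66.7% called). The called share was 16.3% of all genes and 26.2% of those above the median level. Without Mock replicate 2, without Mock replicate 3 or without Ad-Epas1 replicate 2, 1 of the 9 was called (11.1%). Those fits called 5.35%, 5.32% and 6.82% of all genes. The laminin alpha chains moved apart. Lama2, the alpha chain of the laminins of muscle and nerve sheaths, stood at 8.07, 8.60 and 8.68 in Mock and at 6.73, 7.16 and 7.05 in Ad-Epas1 (8.45 ± 0.33 against 6.98 ± 0.23, SD, n = 3 each). All Ad-Epas1 arrays were lower, by 1.47 on the log2 scale in the mean (SE 0.19, limma, adjusted p = 0.0049). Lama4, the alpha chain of vessel and mesenchymal laminins, stood at 10.25, 9.91 and 9.92 in Mock and at 10.46, 10.69 and 10.79 in Ad-Epas1, a rise of 0.62 (SE 0.13, limma, adjusted p = 0.021). Lama5, the alpha chain of most epithelial and vessel laminins, differed by 0.10 (95% interval -0.25 to 0.44). Of the beta chains, Lamb1 rose from 8.68, 8.56 and 8.48 in Mock to 9.61, 9.48 and 8.98 in Ad-Epas1, 1.72-fold (limma, adjusted p = 0.023), with replicate 3 nearest to Mock. Lamb2 stood at 10.70, 10.83 and 10.81 in Mock and at 10.22, 10.32 and 10.78 in Ad-Epas1, with replicate 3 inside the Mock range (-0.34, adjusted p = 0.16, and -0.51 with 0.0053 without that array). The gamma chain Lamc1, shared by most laminins, fell by 0.37 (SE 0.10, limma, adjusted p = 0.047), from 10.18, 10.04 and 10.05 to 9.70, 9.56 and 9.88.

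**Figure D3:**
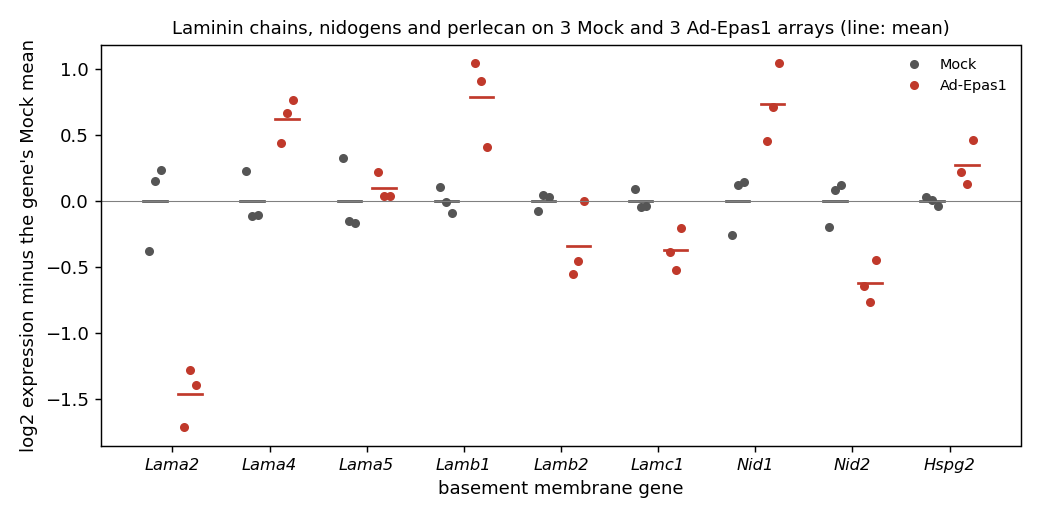
Log2 expression minus the gene's Mock mean (vertical axis) for the 9 laminin, nidogen and perlecan genes, with 1 point per array (grey Mock, red Ad-Epas1) and a line at each group mean. Lama2 and Nid2 lie below Mock and Lama4 and Nid1 above it on all 3 Ad-Epas1 arrays, and 1 Ad-Epas1 array of Lamb2 lies at the Mock mean.

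The nidogens, which bridge laminin and collagen IV networks, also moved apart. Nid1 stood at 10.64, 11.01 and 11.04 in Mock and at 11.35, 11.61 and 11.94 in Ad-Epas1, a rise of 0.74 (SE 0.18, limma, adjusted p = 0.034). Its second probe set gave 0.65 (SE 0.17, adjusted p = 0.045 over all probe sets). Nid2 stood at 9.32, 9.60 and 9.64 in Mock and at 8.87, 8.75 and 9.07 in Ad-Epas1, a fall by 0.62 (SE 0.12, limma, adjusted p = 0.018). Hspg2, which encodes perlecan, the large heparan sulfate proteoglycan of basement membranes, was higher on each Ad-Epas1 array, at 11.93, 11.84 and 12.17 against 11.74, 11.72 and 11.67, without passing (0.27, adjusted p = 0.11). Within this class Lama2 alone passed in every fit that left out 1 array. Lama4, Lamb1, Nid1, Nid2 and Lamc1 did not pass in the fits without replicate 2 or 3 of Mock or replicate 2 of Ad-Epas1, and their adjusted p reached 0.092, 0.097, 0.10, 0.082 and 0.13 over all fits that left out an array. Lamb1, Lamc1 and Nid2 also did so without Ad-Epas1 replicate 1, and Nid1 and Lamc1 without Mock replicate 1. Lamc1 did not pass with each array centred on its median or with a further quantile step.

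On the cell surface, 2 of 7 syndecans and glypicans rose, none fell and 5 did not pass (28.6% called, against 16.3% of all genes). Gpc1, a lipid-anchored heparan sulfate proteoglycan that presents growth factors, had the closest Mock values of the members that passed, at 10.81, 10.82 and 10.82, and stood at 11.63, 11.57 and 11.48 in Ad-Epas1. This was a rise of 0.74 (SE 0.07, limma, adjusted p = 0.0019), and its dimmer second probe set gave 0.28 (adjusted p = 0.066). Sdc4, the syndecan of focal adhesions, stood at 12.30, 12.38 and 12.41 in Mock and at 12.95, 12.99 and 12.90 in Ad-Epas1, a rise of 0.59 (SE 0.07, limma, adjusted p = 0.0035). Sdc2, its relative on fibroblasts, stood at 12.09, 12.24 and 12.23 in Mock and at 11.42, 11.62 and 12.03 in Ad-Epas1, with no overlap, and did not pass over all arrays (-0.50, adjusted p = 0.072). Without Ad-Epas1 replicate 3, the array nearest to Mock, it was at -0.67 (adjusted p = 0.0035). Sdc1 differed by 0.02 (95% interval -0.15 to 0.18). Among the glypicans, Gpc6 lay above Mock on each Ad-Epas1 array (0.24, adjusted p = 0.14) and Gpc4 overlapped (-0.11, 95% interval -0.39 to 0.16). Gpc3, the neighbour of Gpc4 in the genome, stood below the reference in both groups.

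Across arrays, the matrix genes varied within the groups as well as between them. Mock replicate 1 was the array farthest from the others of its group for 42 of 51 members (82.4%), against 48.5% of all genes, and lay below them for 31 of the 42. Ad-Epas1 replicate 3 was the farthest in its group for 32 members (62.7%), against 46.4% of all genes, and lay above the others for 24. Replicate 1 was the lowest array in both groups at once for 22 members (43.1%), against 15.9% of all genes. The members' median deviation from the Mock mean was -0.06, 0.04 and 0.03 on Mock replicates 1, 2 and 3 and -0.26, -0.05 and -0.02 on Ad-Epas1 replicates 1, 2 and 3. For the elastic fibre class the Ad-Epas1 values were -0.44, -0.48 and 0.01, and for the aggrecan and small leucine-rich class -0.42, -0.19 and 0.00. The fibroblast markers had medians of -0.61, -0.57 and -0.15 on the same arrays, beside the macrophage values given above, and the part of either in the matrix values was not tested.

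**Figure D4:**
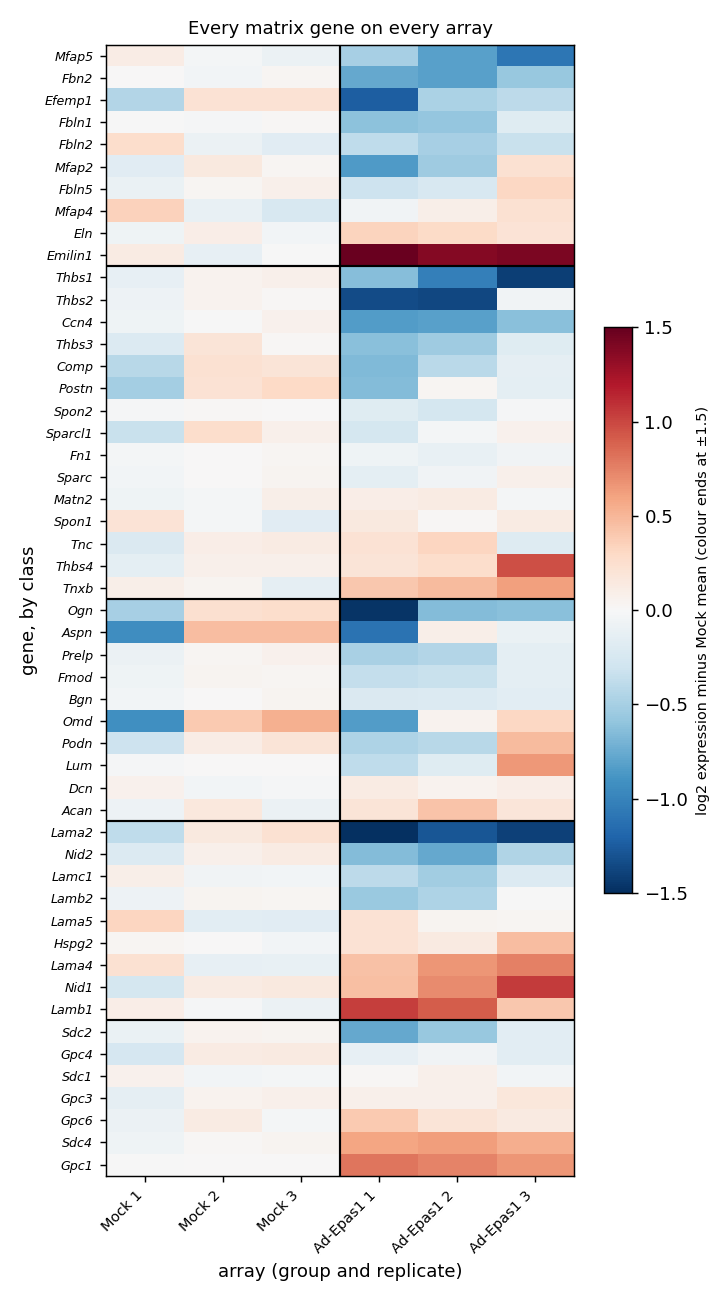
Log2 expression minus the gene's Mock mean (colour, ending at ±1.5) for the 51 genes (rows, by class) on the 6 arrays (columns). Aspn, Omd and Ogn are blue on the first array of each group, and Emilin1 is red and Lama2 blue on all 3 Ad-Epas1 arrays.

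The 8 members that the fit without Ad-Epas1 replicate 3 added were Eln, which rose there, and Mfap2, Thbs2, Thbs3, Fmod, Prelp, Lamb2 and Sdc2, which fell there. All 8 were also called on all arrays with array weights, a fit that called 35.1% of all genes. Those weights were estimated from the scatter of these same arrays, so that fit is not a separate check. On the omitted array all 8 stood nearer to the Mock mean than on the other Ad-Epas1 arrays. None of the 15 genes called on all arrays lost its call in that fit. The class medians there were -0.52 for elastic fibres, -0.15 for fibronectin and matricellular proteins, -0.37 for aggrecan and the small leucine-rich proteoglycans, 0.13 for basement membranes and 0.08 for syndecans and glypicans, against -0.39, -0.08, -0.18, 0.10 and 0.11 on all arrays.

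**Figure D5:**
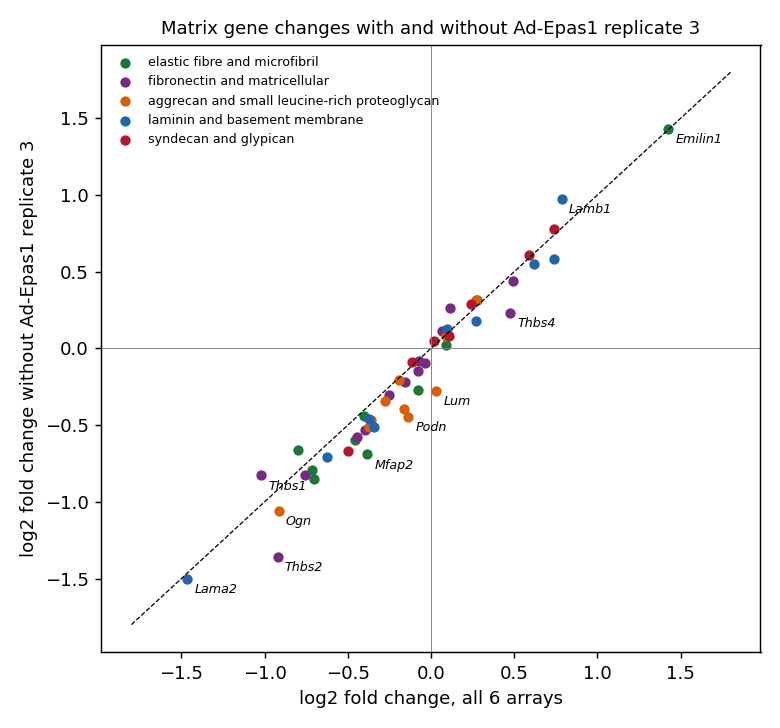
Log2 fold change of each of the 51 genes on all 6 arrays (horizontal axis) against that without Ad-Epas1 replicate 3 (vertical axis), coloured by class, with a dashed line where both are equal. Thbs2, Lum, Podn and Mfap2 lie below the line, and Emilin1 and Lama2 lie close to it.

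Other genes of the matrix were counted as another list. Both it and the members were chosen with earlier results of these data known. More genes of that list than of the members stood below the reference in both groups, so their shares are not like for like. Of 55 measured matrix glycoproteins and proteoglycans outside the list, 4 rose, 5 fell and 46 did not pass (16.4%, median log2 fold change -0.02), against the 16.3% of all genes. The laminin gamma-3 chain gene Lamc3 rose by 1.24 (SE 0.08, limma, adjusted p = 6.4e-04), Ecm1, an extracellular matrix glycoprotein, by 0.42 (adjusted p = 0.0086), and Ltbp3, which stores latent TGF-beta in the matrix, by 0.42 (adjusted p = 0.041). The fallen ones with the smallest p were Tinagl1 (-0.91, adjusted p = 0.017), a basement membrane protein, Hapln1 (-0.66, adjusted p = 0.018), which links aggrecan to hyaluronan and is also on the chondrocyte marker list, and Ltbp1 (-0.88, adjusted p = 0.023), a relative of Ltbp3. Only 1 of this list passed without Mock replicate 2 or without Mock replicate 3, 3 without Ad-Epas1 replicate 2 and 5 without Ad-Epas1 replicate 1, against 15 without Ad-Epas1 replicate 3. Of all genes, these 5 fits called 5.35%, 5.32%, 6.82%, 9.86% and 24.3%, in that order.

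The enzymes that build and sulfate glycosaminoglycan chains, the sugar part of the proteoglycans above, changed in both directions. Of 41 measured, 7 rose, 8 fell and 26 did not pass (36.6%, median -0.16). The called share was 16.3% of all genes and 26.2% of those above the median level. Ugdh, which makes the UDP-glucuronate that enters these chains, rose by 1.19 (SE 0.09, limma, adjusted p = 9.8e-04). B4galt7, which builds the linker between protein and chain, rose by 0.77 (adjusted p = 0.0077), and Sulf2, an enzyme that removes sulfate from heparan sulfate, by 0.43 (adjusted p = 0.027). Csgalnact1, which starts chondroitin sulfate chains, fell by 1.93 (SE 0.17, limma, adjusted p = 0.0016), from a mean of 9.79 in Mock to 7.86 in Ad-Epas1. Extl3, which acts in starting heparan sulfate chains, fell by 0.72 (adjusted p = 0.0030), and Dsel, an epimerase of dermatan sulfate, by 0.87 (adjusted p = 0.010). The count of this list was 4 without Mock replicate 2, 5 without Mock replicate 3, 7 without Ad-Epas1 replicate 2 and 23 without Ad-Epas1 replicate 3. In the same order, these fits called 5.35%, 5.32%, 6.82% and 24.3% of all genes.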

How the data were processed

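Total RNA (300 ng an array) was labelled for Affymetrix whole-transcript arrays. The deposited values are log2 expression per probe set; the submitters' processing notes name RMA and Expression Console 1.3.1. Probe summaries compress large changes. Which build the probes were designed on was not known here. All columns belonged to the 6 samples.

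Of 41345 probe sets, 23521 had 1 symbol in the platform annotation, 1814 several and 16010 none; the last 2 kinds were not used. Entrez identifiers of 23328 were in a RefSeq table of GRCm38.p6, which changed 0 symbols. Of the 51 members, 6 had 2 probe sets. No filter on level was applied. Arrays carry no read depth, and 3 against 3 limits the precision. The groups were compared with lmFit and eBayes of limma 3.58.1 in R 4.3.3, two-sided, adjusted over all 22180 genes, with groups from the titles. The test was first run on simulated data. The members and lists were chosen with earlier results of these data known. All members may be named; from the 2 other lists, the 3 risen and 3 fallen genes with the smallest p were named. Alternatives were a replicate block, leaving out arrays, 2 scalings, a level filter, other variance models, array weights and probe-set means. Same-numbered arrays were not taken as pairs, since the labels state no pairing. The correlations of their deviations from the group means, over all genes, were 0.34, -0.19 and 0.21. Deviations from a mean of 3 arrays are tied to one another, so these values do not decide whether the arrays were paired.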

Additional observations from a re-analysis of the deposited data

How the results depend on the processing

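The calls of Emilin1, Gpc1, Sdc4, Lama2, Ccn4 and Fbn2 stood in every alternative run, except that Fbn2 was not tested among genes above the median level and that the second probe set of Gpc1 missed the threshold. Leaving out single arrays gave 3 to 8 members that rose, 3 to 15 that fell, 6 to 23 called, 5 to 14 called at 1.5-fold or more, and 1181 to 5390 of all genes called. By class these fits called 2 to 6 elastic fibre, 1 to 5 fibronectin and matricellular, 0 to 2 aggrecan and small leucine-rich, 1 to 7 basement membrane and 2 to 3 syndecan and glypican members, with 1 to 15 of the other matrix list and 4 to 23 of the glycosaminoglycan list. Over the same fits the log2 fold change turned sign for Fbln5 (-0.27 to 0.0405), Mfap4 (-0.0272 to 0.27), Sparc (-0.0946 to 0.0167), Sparcl1 (-0.24 to 0.0563), Lum (-0.28 to 0.24), Omd (-0.62 to 0.18), Podn (-0.44 to 0.0253) and Sdc1 (-0.0092 to 0.0524), none of which passed on all arrays. The next 3 alternatives were added after the data were seen. Without both arrays numbered 1, 4 members rose, 1 aggrecan and small leucine-rich, 2 basement membrane and 5 glycosaminoglycan genes were called, 1555 of all genes were called, and Tnc was at -0.0506. Without Mock replicate 1 and Ad-Epas1 replicate 3, 28 members were called, 21 of them lower and 19 at 1.5-fold or more, in classes 8 elastic fibre, 6 fibronectin and matricellular and 4 aggrecan and small leucine-rich, with 21 other matrix genes, 26 glycosaminoglycan genes, 6000 of all genes and Lum at -0.28. With Mock replicates 2 and 3 averaged, 6 members were called (3 rose, 3 fell, 6 at 1.5-fold or more), 2 elastic fibre, 1 fibronectin and matricellular and 1 basement membrane, with 2 other matrix genes, 4 glycosaminoglycan genes and 1218 of all genes, and Sparcl1 was at 0.0078 and Omd at 0.0718. Array weights called 30 members (21 lower), 8 elastic fibre, 7 fibronectin and matricellular and 5 aggrecan and small leucine-rich, with 19 other matrix genes, 26 glycosaminoglycan genes and 7791 of all genes, and put Lum at -0.15. Without shared variance 7 members were called (3 rose, 4 fell, 6 at 1.5-fold or more), 2 elastic fibre and 1 each of fibronectin and matricellular, aggrecan and small leucine-rich and basement membrane, with 2 other matrix genes, 3 glycosaminoglycan genes and 1448 of all genes. Among genes above the median level, and with a trended robust prior, 3 aggrecan and small leucine-rich members were called. The second probe set of Sdc1 gave -0.0018. The cause of these moves was not tested. In the labels, same-numbered arrays share only a number, and whether they share more was not tested. The replicate block called 14 members, 12 of them shared with the main fit. It added Efemp1 and Ogn (1 aggrecan and small leucine-rich member), did not call Fbln1, Lama4 and Lamc1, and called 3108 of all genes. Mock replicate 1 correlated best with Ad-Epas1 replicate 1 (0.34), but not every array correlated best with its own number. Between 3 arrays and 3, small differences stay within the spread.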
